A study of Mus musculus with 9 samples.

Results

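The MHC class II presentation genes are the 10 genes H2-Aa, H2-Ab1, H2-Eb1, H2-Eb2, H2-DMa, H2-DMb1, H2-DMb2, H2-Oa, Cd74 and Ciita. They were taken by gene name from a table of 25124 genes, and each name matched 1 row. All 9 libraries are total RNA of ear skin from C57BL/6 mice whose ears were swabbed every other day with Staphylococcus epidermidis strain LM087, a skin commensal, and were sampled on day 8. In 5 libraries the bacterium was the only treatment. In the other 4 the mice were also treated with anti-CTLA-4, an antibody against a receptor that restrains T cells, at a dose and on days that the labels leave out. The labels also leave out the age and sex of the mice, and mice without the bacterium were not analysed here. The comparison asks how class II expression in colonised skin differs when CTLA-4 is blocked. The labels number the replicates without stating that each is a separate animal, so p-values measure the spread between these libraries, which may be partly technical.

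MHC class II molecules carry peptides from endosomes to the cell surface, where the T cell receptors of CD4+ T cells read them. An alpha and a beta chain pair in the endoplasmic reticulum with the invariant chain, Cd74, which blocks the groove and guides the complex to endosomes. Cathepsins trim the invariant chain there, H2-DM exchanges its last fragment for a peptide, and H2-DO holds H2-DM back. Ciita is the coactivator that switches the family on. It binds no DNA itself and docks on a complex that sits on the X and Y boxes of class II promoters. In skin, Langerhans cells, dendritic cells and macrophages are known carriers of class II.

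Levels are in TPM, the usual transcript abundance unit, which is a read density scaled to a fixed library total. The authors' length for a gene is its whole span with introns, so the TPM of a gene with long introns is low for its reads. Library depths recovered from the table were between 10213773 and 13868671 reads over the listed genes. Keratinocyte markers summed to between 21252 and 26751 TPM with the bacterium alone and to between 19073 and 22423 TPM with anti-CTLA-4, so the defining markers of the labelled tissue were present. Markers of ear muscle were also present, at 601.9 to 1178 TPM over both groups.

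The promoters are shown first because the members share a regulator that acts through them. RefSeq promoter windows (GRCm38.p6, 250 bases before to 50 bases after a start site) were at hand for 7 of the 10 members, H2-DMa with 2 start sites. Capitals mark GATTGG, the core of a Y box, and AACNGATG, an X-box-like word. Both words were chosen after reading these promoters, both strands were searched, and they do not overlap. The 4 promoters that hold both words lie on the plus strand of chromosome 17, at chr17:34305757-34305822 for H2-Eb1, chr17:34325524-34325589 for H2-Eb2, chr17:34153079-34153144 for H2-DMb1 and chr17:34145108-34145173 for H2-DMb2.
H2-Eb1: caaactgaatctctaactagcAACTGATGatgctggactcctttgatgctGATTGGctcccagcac
H2-Eb2: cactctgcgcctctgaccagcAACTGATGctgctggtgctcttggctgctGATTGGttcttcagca
H2-DMb1: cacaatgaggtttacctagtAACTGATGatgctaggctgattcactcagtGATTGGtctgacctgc
H2-DMb2: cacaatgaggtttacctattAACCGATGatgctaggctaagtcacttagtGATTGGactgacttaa

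The distance between the first bases of the 2 words was 29 bases in H2-Eb1 and H2-Eb2, and 30 bases in H2-DMb1 and H2-DMb2. GATTGG began at position -60 from the start site in H2-Eb1, -101 in H2-Eb2, -62 in H2-DMb1 and -91 in H2-DMb2. Of 32851 promoters of the same length from 27025 genes, 16.1% held GATTGG, 2.32% held AACNGATG, and 10 (0.0304%) held AACNGATG followed by GATTGG on the same strand within 40 bases. Those 10 included the 4 members above. The other 6 were BC051142, Fgd4, G3bp2, H2-M10.4, Scgb2b20 and Sf1. Of the 2 H2-DMa promoters, the one at chr17:34125268-34125567 held GATTGG without AACNGATG, and the one at chr17:34122582-34122881 held neither. Below are the windows of H2-Aa (chr17:34287857-34287922, minus strand) and H2-Oa (chr17:34092285-34092350, plus strand), in which GATTGG was found at -49 and -44 and AACNGATG was not.
H2-Aa: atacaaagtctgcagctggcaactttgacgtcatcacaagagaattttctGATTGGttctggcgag
H2-Oa: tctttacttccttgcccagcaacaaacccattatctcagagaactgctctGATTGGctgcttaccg

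H2-DMb1 and H2-DMb2 hold the pair at the same distance, with AACTGATG in the former and AACCGATG in the latter. H2-DMb1 rose with anti-CTLA-4 and H2-DMb2 was not called, though the division of reads between these copies is uncertain. Whether the words bear on the response was not tested. A word match is a description of letters and not of binding. Likewise, a promoter without the word AACNGATG is not thereby shown to lack an X box.

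Of the 10 members, 8 passed the expression filter of at least 1 TPM in at least 4 libraries, and 7 of these 8 rose with anti-CTLA-4. They were both chains of the classical A molecule, the E beta chain, the invariant chain, both H2-DM chains and Ciita. Their group means were between 1.53 and 1.67 times as high with anti-CTLA-4. H2-DMb2 passed the filter and was not called, no member fell, and H2-Oa and H2-Eb2 stayed below the filter. The test was limma on log2(TPM + 1), with Benjamini-Hochberg adjustment over all 15704 genes tested and a threshold of 0.05. Over those genes 7.16% were called higher and 4.48% lower, and 4145 had an unadjusted p under 0.05. For the same 7 members the 2 groups of libraries did not overlap, against 8.02% of all tested genes that lay higher without overlap. The median log2 fold change of the 8 tested members was 0.65, beside -0.014 over all tested genes. On whole reads recovered from the table, limma-voom called the same 7 members, where 10.9% of all genes were called higher. In bulk skin, more class II cells and more class II RNA per cell cannot be told apart.

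**Figure D1:**
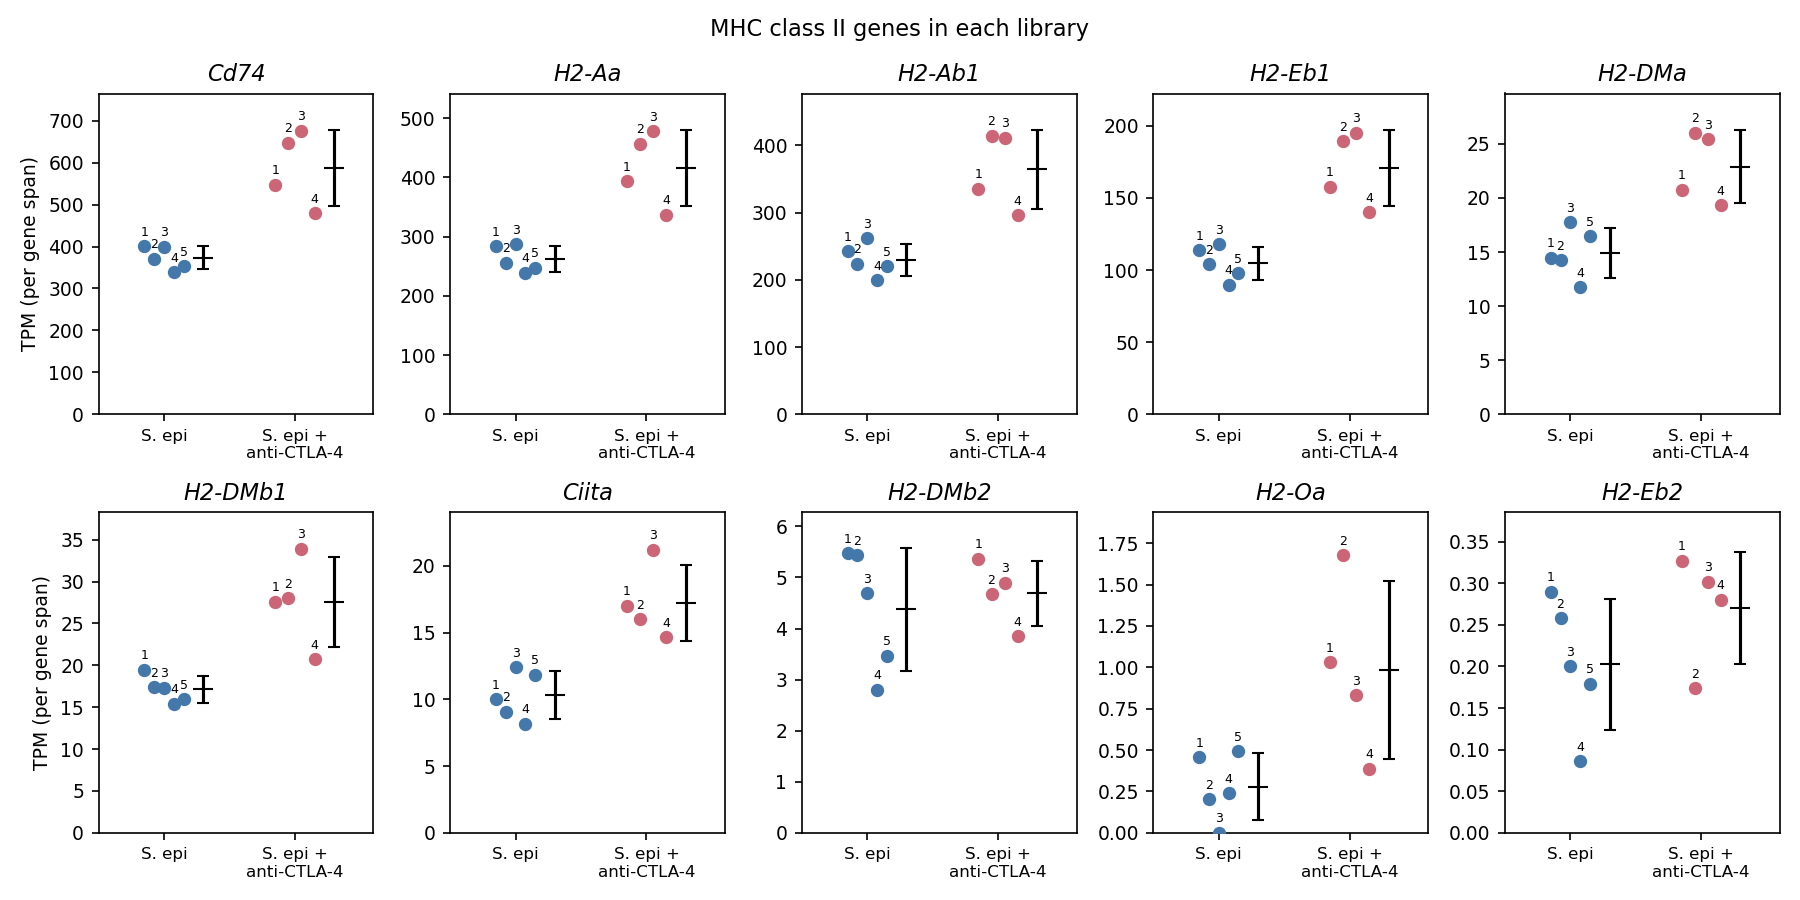
TPM of the 10 class II genes in each library, on linear axes that start at 0. Blue points are the 5 libraries with the bacterium alone, red points the 4 with anti-CTLA-4, small digits the replicate numbers, and bars the mean ± SD. In the 7 called genes every red point lies above every blue point, and in H2-DMb2, H2-Oa and H2-Eb2 the groups overlap.

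H2-Aa encodes the alpha chain of the A molecule (mm10 chr17:34282744-34287823, minus strand). Its TPM was 284, 256, 287, 239 and 247 in replicates 1 to 5 of the bacterium alone. With anti-CTLA-4 it was 393, 457, 478 and 337 in replicates 1 to 4. The groups did not overlap, and replicate 4 was the lowest of each. H2-Aa rose from a mean of 263 ± 21.8 TPM to one of 416 ± 63.9 TPM (SD, n = 5 and n = 4). On the log2 scale this was 0.65 ± 0.11 (SE; limma adjusted p = 0.00709).

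H2-Ab1 encodes the beta chain that pairs with H2-Aa (mm10 chr17:34263227-34269418, plus strand). It stood at 242, 224, 262, 200 and 220 TPM with the bacterium alone. The anti-CTLA-4 libraries had 335, 414, 411 and 296 TPM. Again no library of one group reached the other, and the order of the anti-CTLA-4 libraries differed from that of H2-Aa only in a near tie between replicates 2 and 3. The log2 fold change was 0.65 ± 0.12 (SE; limma adjusted p = 0.00963). The ratio of H2-Ab1 to H2-Aa stayed within 0.837 to 0.913 with the bacterium alone and 0.853 to 0.907 with anti-CTLA-4, a coefficient of variation of 2.95% over all 9 libraries. In TPM, the 2 chains of the molecule thus kept nearly the same proportion in each library.

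H2-Eb1 encodes the beta chain of the E molecule (mm10 chr17:34305867-34316674, plus strand). C57BL/6 mice are known to lack a working E alpha gene, so this chain has no regular partner in them. In these libraries the E alpha pseudogene H2-Ea-ps had 0 reads with the bacterium alone and 1 read with anti-CTLA-4. H2-Eb1 was nevertheless abundant, at 114, 104, 118, 89.7 and 97.7 TPM with the bacterium alone. It reached 158, 189, 195 and 140 TPM with anti-CTLA-4. It rose with no overlap between groups, by 0.69 ± 0.12 (log2, SE; limma adjusted p = 0.00692). Its ratio to H2-Aa was 0.376 to 0.411 and 0.401 to 0.416 in the 2 groups.

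H2-Eb2, a second E beta gene next to H2-Eb1 (mm10 chr17:34325675-34341410, plus strand), was close to undetected. It had 7, 7, 5, 2 and 4 reads with the bacterium alone and 7, 4, 8 and 8 with anti-CTLA-4, which are values between 0.0860 and 0.327 TPM. The groups overlapped. Without the expression filter, where 22100 genes were tested and 4.48% called higher, its log2 fold change was 0.08 ± 0.06 (SE) at a limma adjusted p of 0.476. H2-Eb1 and H2-Eb2 hold the same pair of promoter words, while their summed reads with the bacterium alone were 8771 and 25.

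Cd74, the invariant chain (mm10 chr18:60803849-60812652, plus strand), had the highest level of the members. It was read at 401, 371, 399, 339 and 353 TPM with the bacterium alone. With anti-CTLA-4 the values were 547, 647, 676 and 480 TPM. It rose in step with the chains it escorts, with means of 373 ± 27.5 TPM and 588 ± 90.6 TPM (SD, n = 5 and n = 4). The log2 fold change was 0.65 ± 0.11 (SE; limma adjusted p = 0.00697). Its ratio to H2-Aa was the steadiest measured here, between 1.39 and 1.45 with the bacterium alone and between 1.39 and 1.42 with anti-CTLA-4 (coefficient of variation 1.25%). The microRNA gene Mir5107 lies inside Cd74, with 204 and 277 reads in the 2 groups against 25431 and 32577 for Cd74.

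H2-DMa and H2-DMb1 encode the alpha chain and a beta chain of H2-DM, the peptide exchanger. H2-DMa (mm10 chr17:34125518-34139101, plus strand) had 14.5, 14.2, 17.8, 11.7 and 16.5 TPM with the bacterium alone. It had 20.8, 26.1, 25.4 and 19.3 TPM with anti-CTLA-4. It rose by 0.59 ± 0.13 (log2, SE; limma adjusted p = 0.0193) without overlap, although its closest libraries, at 17.8 and 19.3 TPM, lay near each other. Its call ended when anti-CTLA-4 replicate 2 or 3 was left out, with limma adjusted p-values of 0.0528 and 0.0515.

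H2-DMb1 (mm10 chr17:34153191-34160229, plus strand) stood at 19.4, 17.4, 17.3, 15.4 and 15.9 TPM with the bacterium alone. Its anti-CTLA-4 values were 27.6, 28.01, 33.9 and 20.7 TPM. The lowest of these, replicate 4, was still above all 5 of the other group, and the log2 fold change was 0.64 ± 0.13 (SE; limma adjusted p = 0.0128).

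H2-DMb2 is a close copy of H2-DMb1 beside it on the chromosome (mm10 chr17:34145249-34151553, plus strand) and encodes the alternative H2-DM beta chain. Its values of 5.48, 5.44, 4.69, 2.80 and 3.47 TPM with the bacterium alone spanned those with anti-CTLA-4, which were 5.36, 4.67, 4.90 and 3.85 TPM. The log2 fold change was 0.11 ± 0.17 (SE) at a limma adjusted p of 0.739, and it was -0.01 without bacterium-alone replicate 4 (adjusted p = 0.974). H2-DMb2 rested on 216 and 185 reads in the 2 groups, against 934 and 1219 for H2-DMb1. Of the 75-base windows in its exons, 16.1% also occur in H2-DMb1 or in Zw10, 1700055D18Rik or Hip1r, and 15.8% of the windows of H2-DMb1 also occur in H2-DMb2. The sources used here do not state how such reads were split, so the division between the copies is uncertain. The other 8 members share no window of that length.

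The ratio of H2-DMb2 to H2-DMb1 was 0.282, 0.312, 0.270, 0.181 and 0.218 with the bacterium alone and 0.195, 0.167, 0.144 and 0.185 with anti-CTLA-4. Its mean went from 0.253 to 0.173, and 1 bacterium-alone library, replicate 4, lay among the anti-CTLA-4 values. The difference between the copies was tested directly, as the log2 ratio of TPM + 1 of H2-DMb1 to H2-DMb2. It was 0.53 higher with anti-CTLA-4 (exact two-sided permutation p = 0.0159, adjusted over 2 ratio tests 0.0159, n = 5 and n = 4). For these group sizes 0.0159 is also the smallest p that the two-sided test can give. These 2 ratio tests were chosen after their values had been seen. Leaving out any 1 library gave differences of 0.45 to 0.62. The exact permutation p-values, 0.0286 to 0.0357, are the smallest possible for the reduced groups, so they show only that the groups stayed apart. That separation holds for TPM + 1 and not for the raw ratio, where replicate 4 overlapped.

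H2-Oa, the alpha chain of H2-DO (mm10 chr17:34092379-34095234, plus strand), had 2, 1, 0, 1 and 2 reads with the bacterium alone and 4, 7, 4 and 2 with anti-CTLA-4. Its TPM was at most 0.494 in the former group and between 0.386 and 1.68 in the latter, so the groups overlapped. The fit without a filter gave a log2 fold change of 0.61 ± 0.19 (SE) with a limma adjusted p of 0.0981. The antisense gene BC051537 overlaps it and had as many reads or more in every library, 7 and 27 in all. Without stated strand counting, the reads of the 2 genes cannot be told apart. H2-DO is known mainly from B cells. Of 8 B cell markers 6 stayed below the filter, among them Ms4a1 with 1 and 5 reads in the 2 groups and Pax5 with 18 and 14. The 2 that passed were Fcer2a, at 1.77 ± 0.432 and 1.62 ± 0.278 TPM, and Cd79b, which rose and had means of 0.799 ± 0.168 and 1.93 ± 0.425 TPM (SD, n = 5 and n = 4; limma adjusted p = 0.00674) on 20 and 39 reads. Cd79b passed only through the group where it was high, since its highest bacterium-alone value was 0.977 TPM. Without the filter its limma adjusted p was 0.00961. Its low read number limits this call. The sums of the 8, which include Cd79b, did not overlap, at 4.47 to 6.08 TPM and 6.29 to 6.94 TPM. H2-Ob, the beta chain of H2-DO, had 28 and 34 reads.

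Ciita (mm10 chr16:10480072-10527640, plus strand) is the coactivator of the family and spans 47568 bases, the longest of the members. Its TPM was 10.02, 9.08, 12.4, 8.17 and 11.9 with the bacterium alone and 17.0, 16, 21.2 and 14.7 with anti-CTLA-4. Every anti-CTLA-4 library was above every library of the other group, and replicate 4 was again the lowest of each. Ciita rose by 0.69 ± 0.14 (log2, SE; limma adjusted p = 0.0128), on 3783 and 5179 reads.

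Levels of different members were compared as recovered reads per kilobase of the principal spliced transcript, scaled to library depth as in RPKM, so that the gene span plays no part. With the bacterium alone Cd74 was highest at 294 ± 28.2, followed by H2-Aa at 149 ± 15.6 and H2-Ab1 at 148 ± 18.7 (SD, n = 5). H2-Aa and H2-Ab1 did not differ beyond their spread. H2-Eb1 came next at 85.5 ± 11.3. A step down led to H2-DMa at 15.5 ± 2.82, H2-DMb1 at 10.8 ± 1.18 and Ciita at 10.3 ± 2.08. The ranges of these 3 genes overlapped. H2-DMb2 stood at 2.45 ± 0.695 on this scale, and H2-Eb2 and H2-Oa at 0.119 ± 0.0473 and 0.0925 ± 0.0689, which overlap each other. With anti-CTLA-4 the order of the 8 highest was the same, with H2-DMb1 at 17.8 ± 3.03 and Ciita at 17.6 ± 2.32 within their spread of each other (SD, n = 4). H2-DMa was at 24.2 ± 3.10 there. Reads in introns may be part of these values, and for Ciita with its long introns they would raise the level.

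Within groups, the members moved together from library to library. Deviations of log2(TPM + 1) from the group mean over the 9 libraries gave Pearson correlations of 0.97 to 0.99 for the 6 pairs among H2-Aa, H2-Ab1, H2-Eb1 and Cd74. With the mean of these 4, H2-DMb1 had a correlation of 0.87, H2-DMa 0.81, Ciita 0.63 and H2-DMb2 0.57. H2-DMa and Ciita correlated with each other at 0.81. These are descriptions, since all genes of a library share its total and its depth. In bacterium-alone replicate 4 all 8 tested members were below their group mean, and the same held for anti-CTLA-4 replicate 4.

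**Figure D2:**
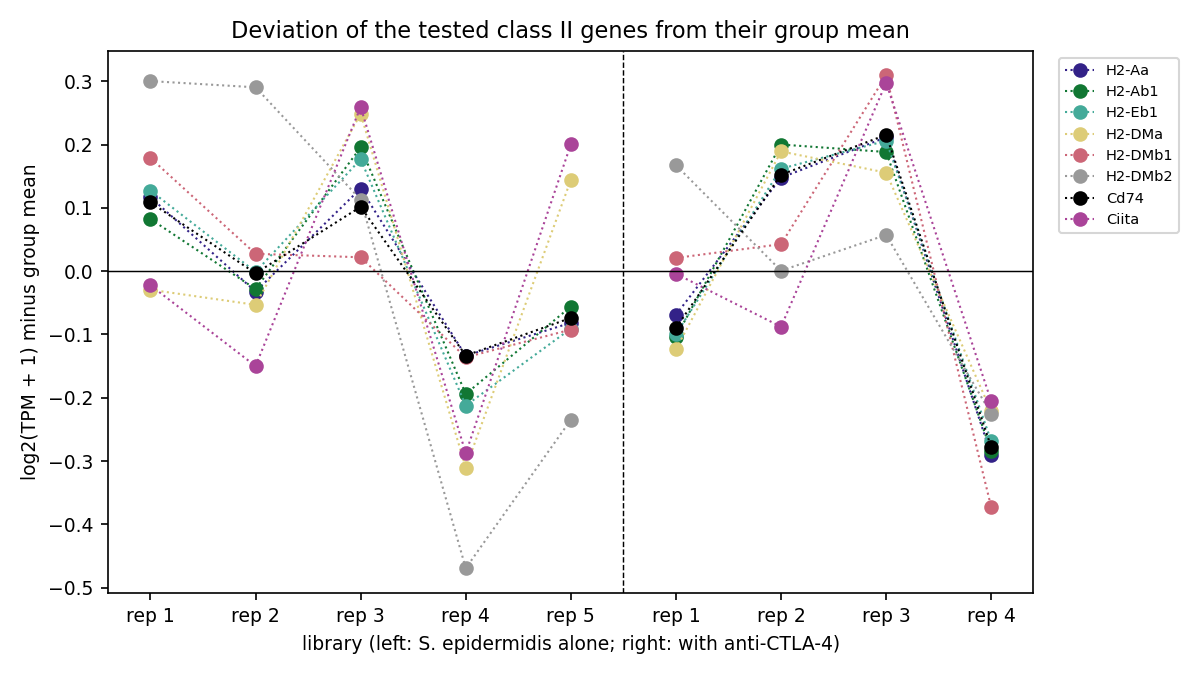
Deviation of log2(TPM + 1) from the group mean for the 8 tested members in each library, with the bacterium alone on the left and anti-CTLA-4 on the right. Dotted lines only join the points of a gene, since replicates have no order. H2-Aa, H2-Ab1, H2-Eb1 and Cd74 lie nearly on top of each other, H2-DMb2 and Ciita depart furthest from them, and replicate 4 is low in both groups.

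The genes most like this block were searched among 15696 tested genes outside the members, by the correlation of their within-group deviations with the mean of the same 4 genes over 9 libraries. A correlation above 0.8 was found for 100 genes. In a search this wide over 9 libraries high correlations also arise by chance, and how many was not tested. The 8 closest were Nat8l (0.96), an N-acetylaspartate synthase, Tnfsf13 (0.96), the B cell factor APRIL, Pld3 (0.94), an endolysosomal nuclease, Grk3 (0.94), a receptor kinase, Nfe2 (0.92), a transcription factor, Frat1 (0.92), a regulator of Wnt signalling, Gm2a (0.91), a lysosomal lipid cofactor, and Adgre1 (0.91), the macrophage marker F4/80. Only Adgre1 was called between the groups, with a log2 fold change of 0.66 and a limma adjusted p of 0.0155. Nat8l, the closest, was at 29.5 ± 1.79 TPM with the bacterium alone and 25.1 ± 3.78 TPM with anti-CTLA-4 (SD, n = 5 and n = 4) and was not called.

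No factor that sits on class II promoters beside Ciita was called. This held for all 7 in either direction by limma and by limma-voom, and 0 of 7 had an unadjusted limma p under 0.05. Over all 15704 tested genes 7.16% were called higher and 4.48% lower, and 4145 had such an unadjusted p. In a list of 7, no call is therefore near the share over all genes. Their log2 fold changes were between -0.16 for Nfya, a subunit of the Y-box factor NF-Y, and 0.16 for Nfyb, its partner. Rfx5, the DNA-binding subunit of the X-box complex, had a log2 fold change of 0.07, Rfxap and Rfxank, its other subunits, -0.01 and 0.02, and Creb1 0.02. Rfx5 stood at 18.4 ± 1.65 TPM and 19.4 ± 0.629 TPM in the 2 groups (SD, n = 5 and n = 4).

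Interferon gamma is the classical inducer of Ciita, through its receptor, JAK kinases and factors that include IRF1. Of 6 genes of this chain, 2 rose and none fell, where limma called 7.16% of all tested genes higher. Their median log2 fold change was 0.39 beside -0.014 over all tested genes. The receptor chain Ifngr1 had means of 52.0 ± 6.85 TPM and 70.4 ± 5.39 TPM (SD, n = 5 and n = 4) and rose by 0.44 on the log2 scale (limma adjusted p = 0.0246). That call ended without anti-CTLA-4 replicate 1, 3 or 4, at adjusted p-values of 0.0591, 0.0623 and 0.0512. Jak2, a kinase bound to the receptor, rose by 0.34 (limma adjusted p = 0.0173). Irf1 had a larger log2 fold change, 0.66, but varied widely between libraries, with 41.0 ± 18.2 TPM and 62.8 ± 20.5 TPM (SD, n = 5 and n = 4), and was not called (limma adjusted p = 0.255). Ifngr2 and Jak1 had log2 fold changes of 0.27 and 0.03 and were not called. By limma-voom 4 of the 6 were called, where 10.9% of all genes were called higher.

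Enzymes that cut the invariant chain and antigens in endosomes rose in part. Of 10 listed genes, 6 rose and none fell, with a median log2 fold change of 0.63, where limma called 7.16% of all tested genes higher. Ctss, cathepsin S, which trims the invariant chain in antigen-presenting cells, rose by 1.05 on the log2 scale, with means of 32.7 ± 5.21 TPM and 69.1 ± 13.2 TPM (SD, n = 5 and n = 4; limma adjusted p = 0.00401). Ctsc, cathepsin C, rose by 1.01, the asparagine-specific protease Lgmn by 0.93, Ctsz by 0.84, the disulfide reductase Ifi30 by 0.73 and Ctsb by 0.53. The 4 genes that were not called were Ctsh with a log2 fold change of 0.27, Cst3, a cathepsin inhibitor, with -0.02, Ctsl with -0.07 and Ctsd with -0.09. Ctsl, known to serve the invariant chain in thymic epithelium, had means of 184 ± 16.7 TPM and 175 ± 16.5 TPM in the 2 groups (SD, n = 5 and n = 4). The ratio of H2-Aa to Ctss was 6.97 to 10.9 with the bacterium alone and 5.49 to 6.30 with anti-CTLA-4, without overlap.

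March1, a ubiquitin ligase that takes class II off the surface, rose by 0.79 on the log2 scale, with means of 5.19 ± 0.509 TPM and 9.76 ± 1.27 TPM (SD, n = 5 and n = 4; limma adjusted p = 0.00255). Its relative March8 and Cd83, which opposes March1, were not called, with log2 fold changes of -0.13 and 0.10.

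Of 6 co-stimulatory genes of antigen-presenting cells, 5 passed the filter and only Cd86 was called higher by limma, beside 7.16% of all tested genes. Its means were 2.49 ± 0.180 TPM and 3.56 ± 0.0832 TPM (SD, n = 5 and n = 4), and its log2 fold change was 0.39 (limma adjusted p = 0.00601). Cd86 is a ligand that CD28 and CTLA-4 share. Cd80, the other such ligand, Cd40, Cd274 and Icosl had log2 fold changes of 0.33, 0.72, 0.75 and 0.22 and were not called (limma adjusted p between 0.0826 and 0.353). Without bacterium-alone replicate 5, 3 of the list were called. An unadjusted limma p under 0.05 was found for 4 of the 5, and limma-voom called 3 higher, beside 10.9% of all genes. Pdcd1lg2 stayed below the filter. On the T cell side, Cd4, the co-receptor for class II, had 3.41 ± 0.565 and 4.91 ± 1.51 TPM in the 2 groups (SD, n = 5 and n = 4; limma adjusted p = 0.190), and was called without anti-CTLA-4 replicate 4 (adjusted p = 0.0419). Lag3, another class II binder, had a log2 fold change of 0.03. Neither was called by limma-voom, and neither had an unadjusted limma p under 0.05.

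**Figure D3:**
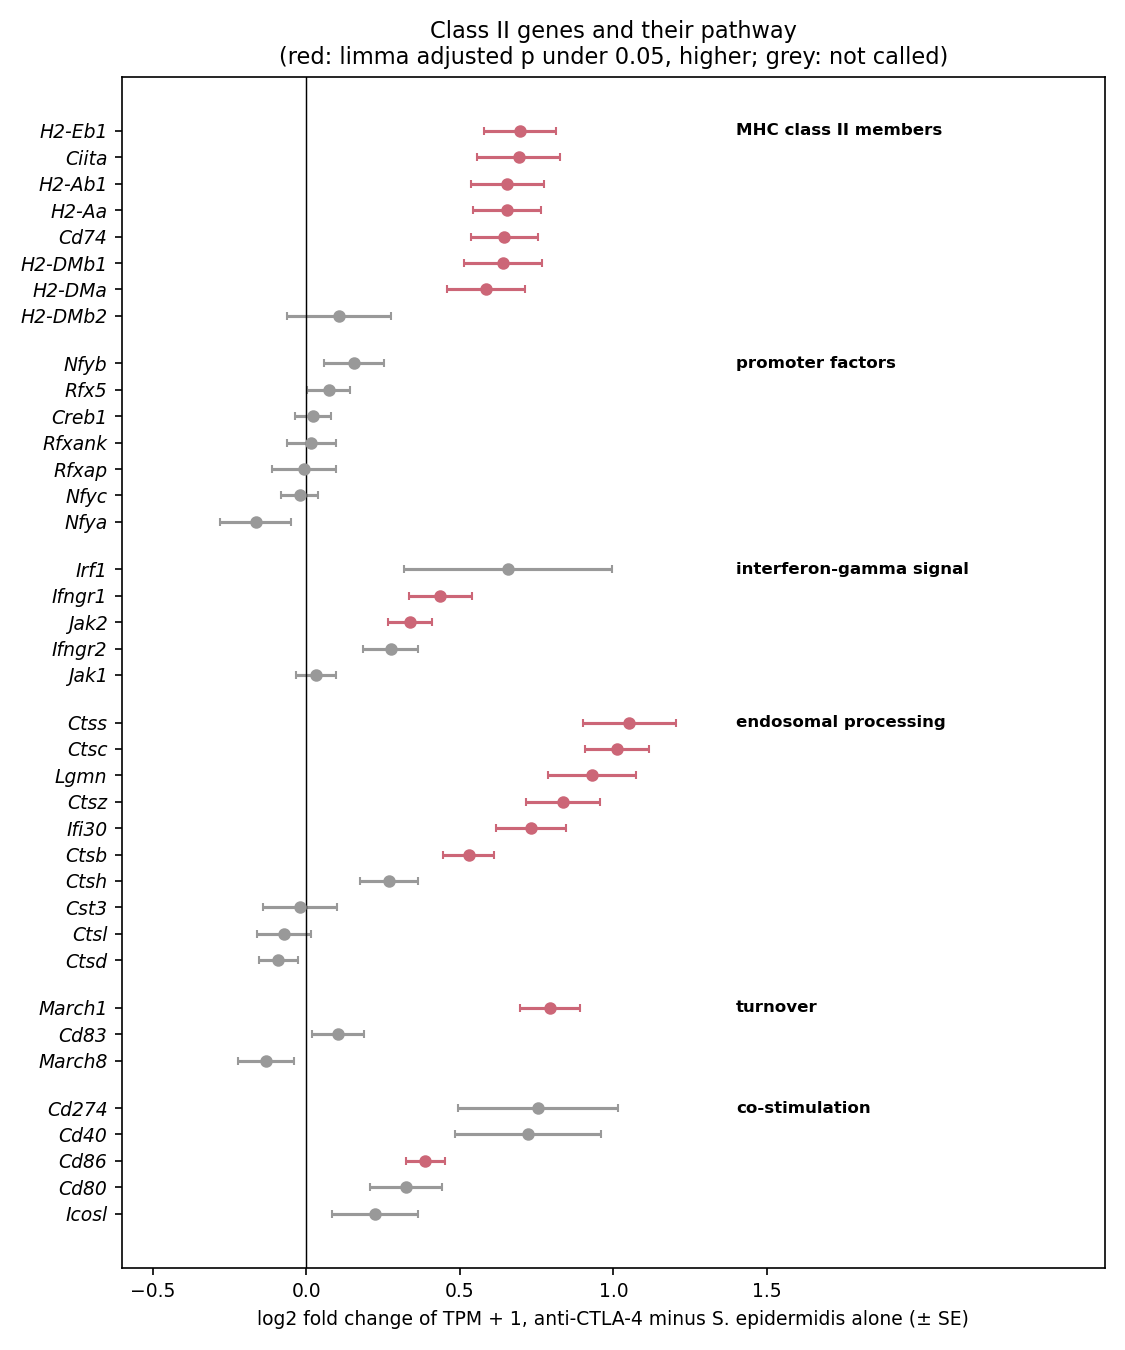
Log2 fold change of TPM + 1 (anti-CTLA-4 minus the bacterium alone, bars are ± SE) for the tested class II genes and for named genes of the pathway lists. Red marks genes called higher at a limma adjusted p under 0.05 and grey marks genes not called. The 7 called members lie between 0.59 and 0.69, the promoter factors lie around 0, and the called endosomal enzymes spread from 0.53 to 1.05.

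MHC class I genes, which share the interferon response with class II, rose in part. Of 13 listed genes 7 rose and none fell, with a median log2 fold change of 0.54, where limma called 7.16% of all tested genes higher. Only 4 were called without bacterium-alone replicate 1 or 2 or anti-CTLA-4 replicate 3 or 4. With skeletal muscle or hair follicle content as a covariate, 0 and 2 were called. B2m, the light chain of class I, rose by 0.96, the heavy chains H2-K1 and H2-D1 by 0.67 and 0.63, and the peptide transporter genes Tap1 and Tap2 by 0.74 and 0.47. The immunoproteasome genes Psmb8 and Psmb9 rose by 1.25 and 0.90. Nlrc5, the class I counterpart of Ciita, had a log2 fold change of 0.39 and was not called (limma adjusted p = 0.199).

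Markers of leukocytes moved in the same direction as the members. For the counts that follow, the share of all tested genes that limma called higher was 7.16%. All 5 pan-leukocyte markers rose, with a median log2 fold change of 1.14, and their sums were 113.6 to 156 TPM with the bacterium alone and 295 to 385 TPM with anti-CTLA-4. The 10 members summed to between 906 and 1118 TPM and between 1312 and 1847 TPM. Of 10 monocyte and macrophage markers 8 rose, with sums of 339 to 507 TPM and 599 to 901 TPM. The largest log2 changes among them were 1.82 for Fcgr1, 1.46 for Ccr2 and 1.36 for Itgam, while Csf1r (0.47) and Mertk (0.08) were not called. All 5 T cell markers rose, with sums of 13.9 to 17.7 TPM and 33.3 to 43.0 TPM. Among them Cd6 passed the filter only through the group where it was high, since its highest bacterium-alone value was 0.672 TPM. Without the filter the limma adjusted p of Cd6 was 0.00354. With skeletal muscle content as a covariate, 2 pan-leukocyte, 2 monocyte and macrophage and 2 T cell markers were called, and with hair follicle content 5, 4 and 4. No marker of any list was at 0 in all 9 libraries.

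Dendritic and Langerhans cells carry much class II. Of 9 dendritic cell markers only Batf3 was called, with a log2 fold change of 0.46 (limma adjusted p = 0.0345), and that call ended in 7 of 9 fits that left out 1 library (adjusted p up to 0.0879). Over all tested genes 7.16% were called higher. An unadjusted limma p under 0.05 was found for 4 of the 9. Several lay near 1 TPM, such as Flt3 with means of 0.959 and 1.37 TPM, where the pseudocount makes fold changes too small. Their sums were 16.1 to 21.9 TPM and 20.5 to 24.6 TPM, which overlap. Itgax, Flt3, Ccr7, Clec9a and Xcr1 had log2 fold changes of 0.35, 0.26, 0.26, 0.25 and 0.17, and Siglech, Cd209a and Zbtb46 of 0.07, -0.08 and -0.09, none of them called. Both Langerhans cell markers were lower in mean with anti-CTLA-4 and neither was called: Cd207 went from 11.8 ± 2.26 to 8.98 ± 2.11 TPM (SD, n = 5 and n = 4; limma adjusted p = 0.188), and Epcam, which other skin epithelia also express, had a value of -0.22 (adjusted p = 0.0553, and 0.0454 without anti-CTLA-4 replicate 4). The log2 fold change of Epcam was also called in 6 alternative fits, at -0.24 to -0.19 with adjusted p-values of 0.0189 to 0.0479. Both markers had an unadjusted limma p under 0.05, and limma-voom called 0 of the 2. The log2 change of the B cell marker Cd79b was 0.70, and leaving out any anti-CTLA-4 library took that gene below the filter. The part of any of these cell types in the class II values was not tested.

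Set against the leukocyte marker Ptprc (CD45), H2-Aa was lower with anti-CTLA-4. The ratio of H2-Aa to Ptprc was 34.7, 24.9, 25.9, 28.9 and 20.9 with the bacterium alone and 19.6, 18.6, 18.7 and 19.5 with anti-CTLA-4. The groups did not overlap, and the spread was 27.1 ± 5.16 in the former and 19.1 ± 0.518 in the latter (SD, n = 5 and n = 4). The log2 ratio of TPM + 1 differed by -0.41 (exact two-sided permutation p = 0.0159, adjusted over the 2 ratio tests 0.0159), and by -0.49 to -0.32 when 1 library was left out. That p is again the smallest that the two-sided test can give. H2-Aa thus rose by less than Ptprc. The ratio of H2-Aa to Adgre1 overlapped between the groups (84.1 to 97.2 and 71.7 to 94.0), as did those to Csf1r (6.87 to 9.47 and 7.70 to 10.7) and to the dendritic cell marker Itgax (56.4 to 69.3 and 64.1 to 85.4). The ratio to Cd207 was 18.7 to 30.3 and 28.8 to 68.3, with anti-CTLA-4 replicate 4 the 1 library of its group inside the range of the other.

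**Figure D4:**
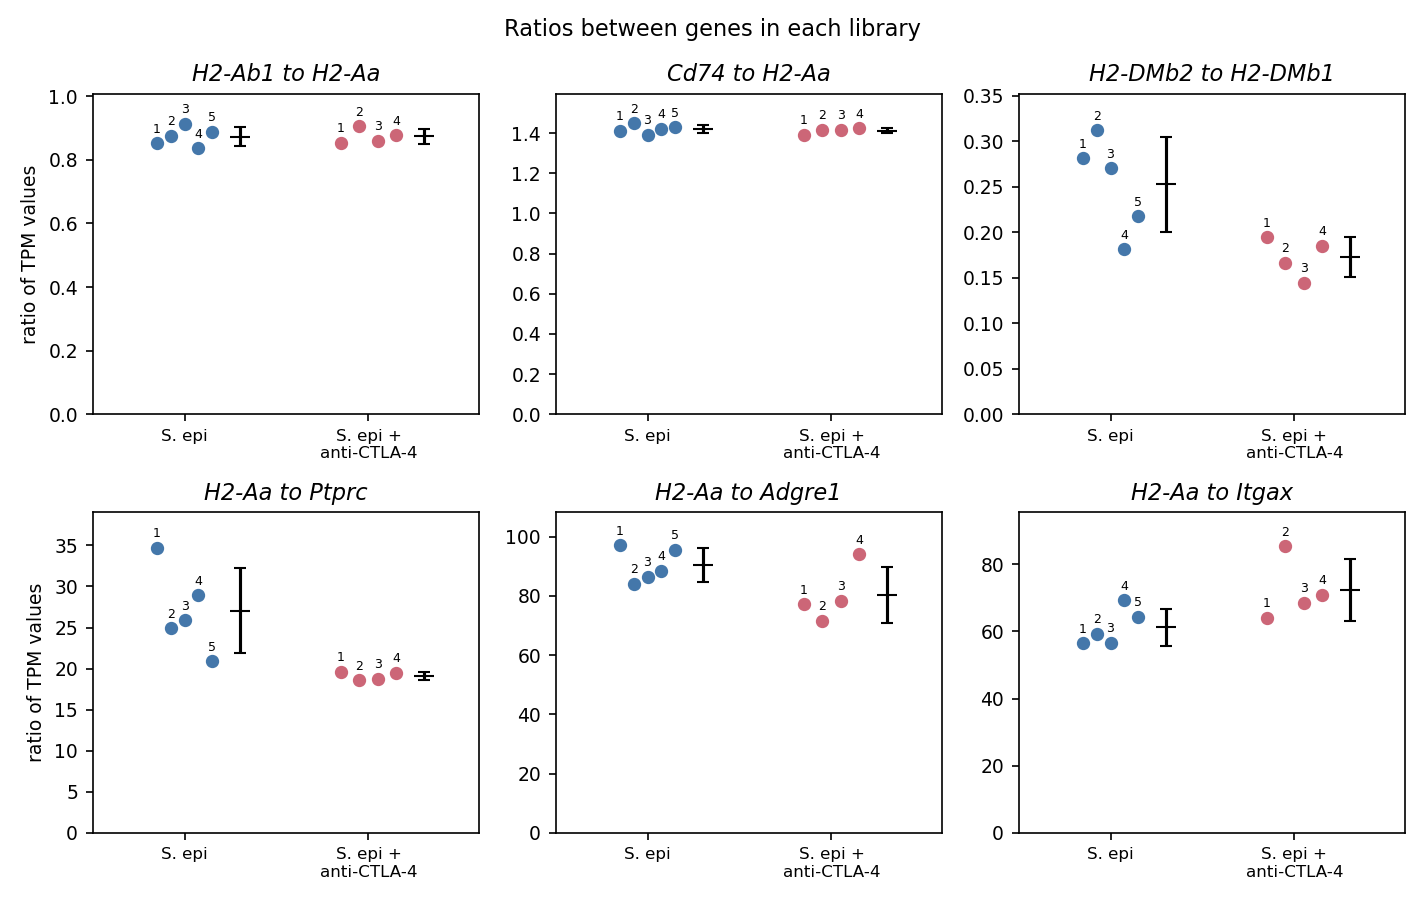
Ratios of TPM values in each library, on linear axes that start at 0, with the bacterium alone in blue, anti-CTLA-4 in red, replicate numbers as small digits and bars for mean ± SD. H2-Ab1 and Cd74 keep a nearly constant ratio to H2-Aa, H2-DMb2 to H2-DMb1 is lower in 4 of 4 anti-CTLA-4 libraries than in 4 of the 5 others, and H2-Aa to Ptprc falls in a narrow band from 18.6 to 19.6 with anti-CTLA-4.

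Markers of other skin tissue also differed between libraries. Limma called 7.16% of all tested genes higher and 4.48% lower, and limma-voom called 10.9% higher. Of 5 keratinocyte markers Krt1 rose, by 0.96 on the log2 scale without overlap (limma adjusted p = 0.0245), a call that ended without bacterium-alone replicate 2 or anti-CTLA-4 replicate 2, 3 or 4. Krt10 lay lower with anti-CTLA-4 without overlap and was not called (log2 fold change -0.40, limma adjusted p = 0.0809), and limma-voom called 2 of the 5 lower. Hair follicle markers summed to 17.1 to 36.6 TPM with the bacterium alone and to 11.7 to 16.9 TPM with anti-CTLA-4, and Krt73 was the 1 of 4 tested that fell (log2 fold change -0.92, limma adjusted p = 0.0128). Skeletal muscle markers summed to 749.7 to 1178 TPM and 601.9 to 915.5 TPM, with 0 of 5 called by limma, 3 at an unadjusted p under 0.05 and 3 called lower by limma-voom. With the mean of the muscle list as a covariate, 0 of the 8 tested members were called, all 7 kept an unadjusted p under 0.05, and 91 genes were called higher in all. Their log2 fold changes were then 0.48 to 0.66, with limma adjusted p-values of 0.0872 to 0.213. Of the 10 pathway genes called in the interferon gamma, endosomal, turnover and co-stimulation lists, Ctsb, Ctsc, Lgmn and March1 were still called with the muscle covariate, at adjusted p-values of 0.0444 to 0.0496. With the hair follicle list as a covariate, H2-Eb1, H2-DMb1 and Cd74 were called and the 7 log2 fold changes were 0.64 to 0.78. Of fibroblast and endothelial markers, 0 of 4 and 0 of 3 were called by limma, with 1 and 2 at an unadjusted p under 0.05 and 1 and 2 called higher by limma-voom. Without anti-CTLA-4 replicate 2, limma called 1 gene of each of these lists.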

How the data were processed

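The deposited table holds TPM per gene and library, computed by the authors, with gene positions on mm10. The submitters' processing notes name the tools STAR, HOMER and DESeq2, with no version or role. Per the labels' protocols, 500 ng of RNA entered each library, which was sequenced with 75 cycles. The deposited length equals end minus start for 99.2% of genes. TPM times this length gave whole reads (within 0.1 read) for 100% of values checked, against 22.2% to 23.1% with spliced lengths, so reads could be recovered. Checked were 15447 to 16311 values a library, all under 2000 reads. The longest genes were left out of this check, since rounding of their TPM blurs whole reads. In 539 pairs of a small gene nested in a coding gene, 0 hosts had fewer reads than the nested gene. Ribosomal RNA entries took 30.6% to 40.2% of the listed TPM.

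Groups and replicate numbers came from the sample titles. The groups' log2(TPM + 1) values were fitted for genes that reached 1 TPM in 4 or more libraries, using limma 3.58.1 (R 4.3.3, empirical Bayes with mean trend, two-sided, Benjamini-Hochberg over all genes tested, threshold 0.05). The pseudocount makes fold changes of low genes too small. The script was tested on simulated data. Members below the filter come from the fit without it. Ratios were compared by exact permutation (scipy 1.17.1). The members and all lists were chosen with earlier results of these data known. Named are all members, up to 6 tested genes with the smallest p per pathway list (all of a list of 6 or fewer), up to 4 per marker list and the 8 genes most like the members. Other genes named from these lists were chosen after their values were seen. Alternatives were other pseudocounts, filters, scalings and variance settings, the replicate block, covariates and leaving out each library. Added after seeing the data were voom on recovered reads, spliced lengths and protein-coding genes only. Some genes of the lists are counted but not reported here by name.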

Additional observations from a re-analysis of the deposited data

Results flagged for a closer look

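Of 112 groups of values checked for a single library far from the rest, 5 were marked, and chance marks about 1 in 20. Anti-CTLA-4 replicate 4 had the lowest Ctsb, at 101.3 TPM, where the other 3 libraries had 118.2 to 121.6 TPM. Bacterium-alone replicate 5 had the highest Cd86, at 2.802 TPM against 2.368 to 2.457 TPM. Anti-CTLA-4 replicate 1 had the lowest Psmb8, an immunoproteasome gene, at 112.8 TPM against 151.1 to 154.2 TPM. Anti-CTLA-4 replicate 2 had the lowest ratio of Ciita to H2-Aa, at 0.03501 against 0.04328 to 0.0444 in its group, a value inside the range of the bacterium-alone libraries. The same library had the lowest ratio of H2-Aa to Ctss, 5.49 against 6.214 to 6.298.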

How the results depend on the processing

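The count of 7 members called higher was the same, with the same 7 genes, under the other pseudocounts, filters, scalings and variance settings, array weights, voom on recovered reads, spliced lengths and protein-coding genes only. It was 0 with the skeletal muscle covariate, 3 with the hair follicle covariate, and 6 to 7 when 1 library was left out. The cause was not tested. No member was called lower in any fit. When 1 library was left out, the log2 fold change of H2-DMb2 ranged from -0.0103 without bacterium-alone replicate 4, where it changed sign, to 0.18 without anti-CTLA-4 replicate 4. Its highest value over all fits was 0.32, with the hair follicle covariate. No pairing by replicate number was seen: same-numbered libraries correlated at -0.01, 0.02, -0.09 and -0.09 in their deviations. None correlated best with its own number. So few correlations cannot decide whether the numbers carry a meaning. With the replicate block the 7 members were called, and 592 of all tested genes rose and 88 fell, against 1124 and 704. Among the genes followed in every fit, the block ended the calls of Ifngr1 (limma adjusted p = 0.105), Jak2 (0.0622), Ctsb (0.05002), Cd86 (0.0512), Cd79b (0.0661) and Batf3 (0.110). Over all genes, quantile normalization gave 1314 higher and 1429 lower, a common median 1302 and 1313, and totals without the 50 most abundant genes 1198 and 1314. Voom gave 1706 and 1375, spliced lengths 1552 and 1123, and the muscle and hair follicle covariates 91 and 16, and 326 and 36. Single libraries left out gave 706 to 1094 higher and 337 to 703 lower. Depth limits H2-Oa and H2-Eb2, with at most 8 reads a library.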
